A study of Mus musculus with 12 samples.

Results

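The genes described here are 45 components of bone morphogenetic protein (BMP) and transforming growth factor beta (TGF-beta) signalling, out of 55487 genes in the count table. They were taken by name: 13 BMP and GDF ligands, 3 TGF-beta ligands, the protease Bmp1, 5 type I and 4 type II receptors, the co-receptor Tgfbr3, the pseudoreceptor Bambi, 5 extracellular modulators, 8 Smads and 4 Id genes. Nodal, Lefty, Cer1 and the inhibins were not among them. Of the 45, 44 passed the filter on low counts and were tested. Gdf5, a ligand of joint formation, did not, with 19 counts or fewer in each group of 3 libraries. Of its exon bases, 40.3% also lie under an antisense gene.

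Bulk RNA sequencing had been done on embryoid bodies, floating aggregates in serum medium, made from mouse epiblast stem cells (EpiSCs). These cells resemble the primed epiblast just before gastrulation, and were derived in culture from embryonic stem cells. All 4 groups, with 3 libraries each, came from cells in which doxycycline switches on a FLAG-tagged copy of Mixl1, which encodes a homeodomain factor of the nascent streak and mesendoderm. NoDox_d2 and NoDox_d4 were grown without the drug and collected at day 2 and day 4. D1Dox_d2 and D3Dox_d4 were given 1 µg/mL doxycycline and collected at day 2 and day 4, and the meaning of "D1" and "D3" is not spelled out. Drug-treated cells lacking the transgene are not among the samples, so doxycycline and Mixl1 cannot be told apart as the source of a difference. The labels do not state that replicates were separate cultures or how many clones were used, so each p reflects only how these libraries scatter, which may be technical scatter. In bulk RNA, fewer cells of a type and less RNA per cell cannot be told apart.

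BMPs, GDFs and TGF-betas are secreted dimers that bring type II and type I receptor kinases together on the cell surface. The type I receptor then phosphorylates Smad1, Smad5 and Smad9 in the BMP branch, or Smad2 and Smad3 in the TGF-beta, activin and Nodal branch, and these join Smad4 in the nucleus. Id1, Id2, Id3 and Id4 are classic BMP targets, while Smad6, Smad7 and Bambi damp the signal and Nog, Chrd and Grem1 bind ligand outside the cell. In the gastrulating mouse embryo BMP signalling is required for posterior mesoderm, and BMP antagonism for anterior and neural fates.

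Total counts ranged from 24100487 to 28020036 per library. Levels are CPM, counts scaled to library size by edgeR, in which 3 counts make 0.106 to 0.13 CPM. Mixl1 reached 362 to 392 CPM with doxycycline at day 2 and 417 to 478 CPM at day 4, against 0.593 to 1.83 CPM in 5 of the 6 NoDox libraries. The sixth, NoDox_d2 replicate 1, held 91.0 CPM, and a gene count does not separate the transgene from the endogenous gene. The libraries numbered 1 of both NoDox groups stood apart, with correlations to the others of their group of 0.949 to 0.953, where the other NoDox pairs reached 0.985 to 0.987. Calls that change when 1 of these libraries is left out are given both ways. The libraries were picked out from these same data, so calls gained without them can follow from that choice alone. Primed epiblast markers, 10 genes including Pou5f1 and Fgf5, summed to 1311 to 1418 CPM in NoDox_d2 and 638 to 709 CPM in D1Dox_d2. At day 4 they summed to 488 to 835 CPM in NoDox_d4 and 456 to 509 CPM in D3Dox_d4. None of them was at 0 in a whole group. Not every marker followed the sum, as Fgf5 held 2479 counts in D1Dox_d2 against 1694 in NoDox_d2, without a call. Sox2 held the most counts of the 10 in NoDox_d4 (25465) and D3Dox_d4 (21606).

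Of the 10 members that changed the same way on both days, described below, 5 have a RefSeq promoter entry whose 250 bases upstream of the start hold no annotated exon, Bmpr1b at 2 starts. They are shown here because Gdf7 and Bmper had the largest rises found on both days, and Gdf10, Smad3 and Bmpr1b are the 3 members that fell on both. The sequences come from RefSeq for GRCm38.p6 and run 5′ to 3′ toward the start site. Capitals mark every match, on either strand, to TAAT (the homeodomain core), CAGAC (a Smad-binding element) or GGCGCC (a GC-rich Smad site).
Gdf7, chr12:8301955-8302204, minus strand: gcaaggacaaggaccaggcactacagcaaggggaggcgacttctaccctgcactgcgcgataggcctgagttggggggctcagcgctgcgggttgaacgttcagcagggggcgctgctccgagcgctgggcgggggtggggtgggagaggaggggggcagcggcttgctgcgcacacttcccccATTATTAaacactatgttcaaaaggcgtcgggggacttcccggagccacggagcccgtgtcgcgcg
Bmper, chr9:23222826-23223075, plus strand: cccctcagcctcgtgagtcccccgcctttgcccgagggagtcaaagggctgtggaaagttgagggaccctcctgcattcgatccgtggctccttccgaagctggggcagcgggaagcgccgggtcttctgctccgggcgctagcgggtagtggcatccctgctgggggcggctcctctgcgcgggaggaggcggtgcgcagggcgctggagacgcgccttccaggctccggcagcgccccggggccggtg
Gdf10, chr14:33923337-33923586, plus strand: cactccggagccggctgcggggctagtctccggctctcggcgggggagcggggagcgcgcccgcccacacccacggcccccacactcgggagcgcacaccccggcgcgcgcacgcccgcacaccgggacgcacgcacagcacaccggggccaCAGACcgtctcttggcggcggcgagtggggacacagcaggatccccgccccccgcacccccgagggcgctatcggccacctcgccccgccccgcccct
Smad3, chr9:63757995-63758244, minus strand: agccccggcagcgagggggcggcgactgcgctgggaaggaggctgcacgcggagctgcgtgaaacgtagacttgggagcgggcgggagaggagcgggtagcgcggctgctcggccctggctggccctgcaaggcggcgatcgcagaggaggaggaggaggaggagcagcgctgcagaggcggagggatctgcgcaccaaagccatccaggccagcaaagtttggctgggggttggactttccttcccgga
Bmpr1b, chr3:141931589-141931838, minus strand: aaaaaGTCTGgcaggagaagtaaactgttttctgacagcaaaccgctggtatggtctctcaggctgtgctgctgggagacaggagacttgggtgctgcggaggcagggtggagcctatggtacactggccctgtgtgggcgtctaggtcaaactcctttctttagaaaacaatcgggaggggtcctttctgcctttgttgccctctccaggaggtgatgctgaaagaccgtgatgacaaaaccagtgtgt
Bmpr1b, chr3:141982265-141982514, minus strand: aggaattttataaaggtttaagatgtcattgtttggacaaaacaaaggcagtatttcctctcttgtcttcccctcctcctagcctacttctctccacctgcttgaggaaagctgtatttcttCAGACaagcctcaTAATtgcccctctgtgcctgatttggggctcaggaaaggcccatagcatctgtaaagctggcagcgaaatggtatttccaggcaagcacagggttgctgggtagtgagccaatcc

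The Gdf7 window held 2 overlapping TAAT matches and the Gdf10 window 1 CAGAC. Each Bmpr1b window held 1 CAGAC, and the one that starts at 141982265 also 1 TAAT, while the Bmper and Smad3 windows held none of these motifs. Among 32851 RefSeq promoter windows of the same length, 54.9% held TAAT, 42.2% CAGAC and 9.59% GGCGCC. None of the 6 windows held a paired-class homeodomain site, TAAT followed by ATTA after 2 or 3 bases of any kind, found on either strand in 0.384% (2 bases) and 0.463% (3 bases) of windows. A match describes letters only and says nothing about binding.

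**Figure D1:**
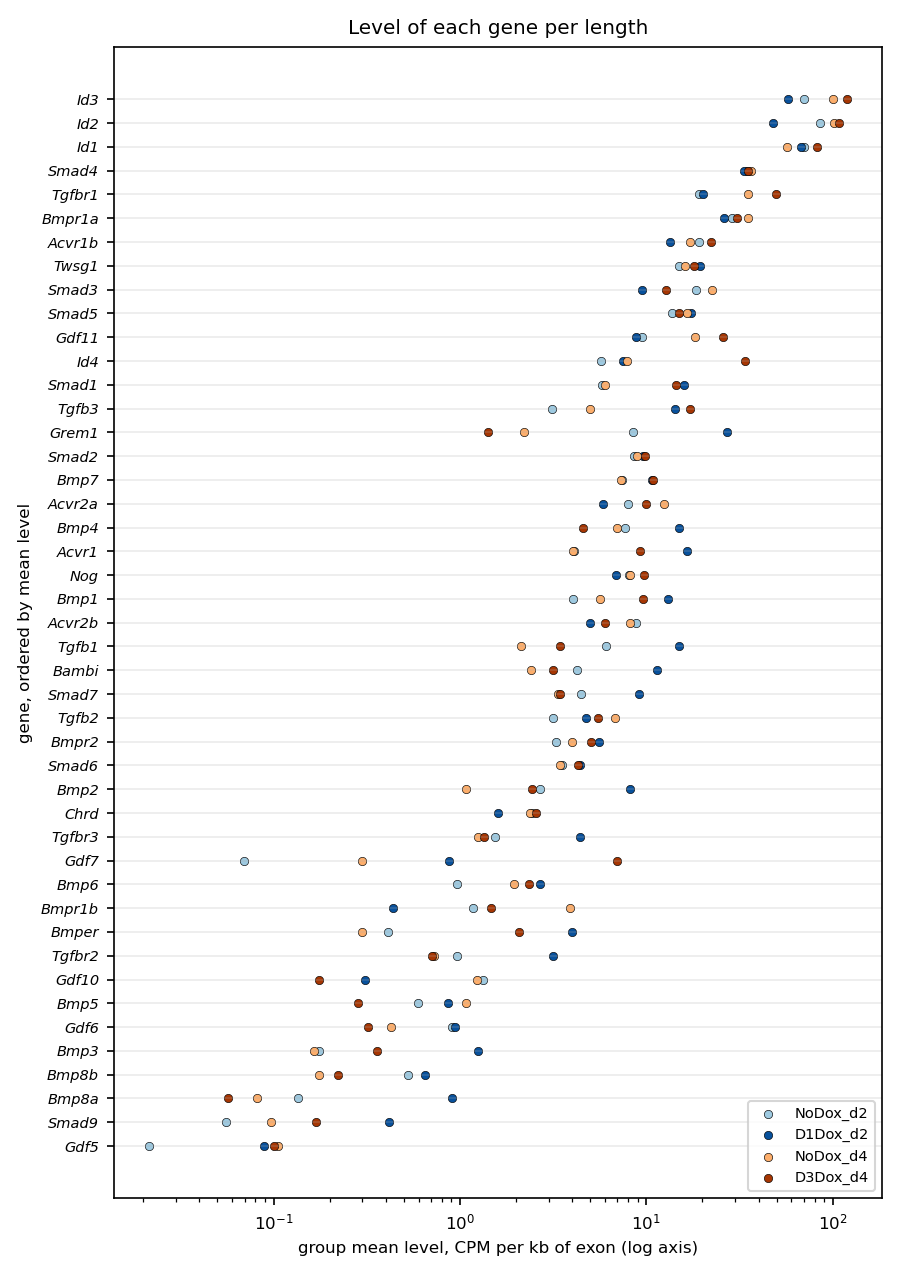
Mean level of each of the 45 genes in CPM per kb of exon (log axis), one point per group of 3 libraries, ordered by the mean over all libraries. Id3, Id2 and Id1 lie highest, Gdf5 lowest, and Gdf7 spans the widest range.

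By level per length of exon, the Id targets led. Averaged over the 12 libraries, Id3 stood at 86.7 CPM per kb, Id2 at 85.9 and Id1 at 69.4, followed by the shared Smad, Smad4, at 34.9 and the TGF-beta type I receptor Tgfbr1 at 31.0. Smad4 lay between 122 and 139 CPM in all 12 libraries and was called in no comparison.

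The first comparison asks what doxycycline-induced Mixl1 cells showed at day 2. Doxycycline was accompanied by higher RNA of many ligands, of the BMP type I receptor Acvr1 and of the BMP-branch Smads Smad1 and Smad9, and by lower RNA of Smad3, the ligand Gdf10 and 3 further receptors. None of the 4 Id targets was called higher, and Id2 was called lower. Of the lower calls, only those of Smad3 and Gdf10 were made under every omission of 1 library. Of 44 members tested, 24 were called, 18 higher and 6 lower, where 28.4% of all tested genes were called. By direction, 14.9% of all genes were called higher and 13.4% lower. Tests were made with edgeR's quasi-likelihood test with Benjamini-Hochberg adjustment over 18109 genes, and a gene was called at an adjusted p under 0.05. In 32 members the libraries of both groups did not overlap, as was so for 46.0% of all genes. The members' median log2 fold change was 0.46, against -0.03 over all genes tested. Without both NoDox libraries numbered 1, 34 members were called (26 higher and 8 lower), and 9902 of 18613 genes.

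Of 12 tested BMP and GDF ligands, 6 rose and 1 fell. Bmp2, which acts in extraembryonic and cardiac mesoderm, stood at 28.2, 29.05 and 30.4 CPM in D1Dox_d2 against 8.61, 10.4 and 9.67 CPM in NoDox_d2. All doxycycline libraries lay above all controls, and the log2 fold change was 1.61 ± 0.16 (± SE; edgeR adjusted p = 3.12e-05, n = 3 per group here and throughout). Gdf7, a ligand of the neural roof plate, stood at 1.099, 1.098 and 1.52 CPM in D1Dox_d2 against 0.141, 0.0791 and 0.0744 CPM in NoDox_d2. The control values rest on 8 counts over 3 libraries, and the log2 fold change was 3.58 ± 0.53 (edgeR adjusted p = 0.000579). Gdf10, a ligand related to Bmp3, fell, from 11.2, 5.45 and 4.24 CPM in NoDox_d2 to 1.36, 1.34 and 2.12 CPM in D1Dox_d2. Its groups did not overlap, and replicate 1 was the highest control (log2 fold change -2.11 ± 0.36, edgeR adjusted p = 0.00144).

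Bmp3, which opposes BMP signalling in bone, stood at 9.39, 7.69 and 10.7 CPM in D1Dox_d2 against 2.51, 0.553 and 0.855 CPM in NoDox_d2. Its log2 fold change was 2.82 ± 0.77 (edgeR adjusted p = 0.0182). The call was not made without D1Dox_d2 replicate 3 or NoDox_d2 replicate 2 or 3 (adjusted p 0.0566 to 0.0727), and without NoDox_d2 replicate 1, its highest control, the log2 fold change was 3.69. Bmp8a, a ligand known from germ cell formation, stood at 1.86, 2.28 and 2.43 CPM in D1Dox_d2 against 0.706, 0.158 and 0.112 CPM in NoDox_d2, so every doxycycline library lay above every control. Its log2 fold change was 2.71 ± 0.64 (edgeR adjusted p = 0.009397), and 3.96 without NoDox_d2 replicate 1. Bmp6 stood at 10.6, 10.5 and 10.6 CPM in D1Dox_d2 against 2.79, 4.35 and 4.13 CPM in NoDox_d2, with nearly equal doxycycline libraries. It rose by 1.49 ± 0.43 on the log2 scale (edgeR adjusted p = 0.0233), a call not made without any 1 of the D1Dox_d2 libraries or NoDox_d2 replicate 2 or 3 (adjusted p 0.0516 to 0.0615). Bmp7, a widely expressed ligand, rose by 0.52 ± 0.15, and its call was lost with the same libraries (adjusted p 0.0558 to 0.0963).

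Bmp4, the ligand most tied to mesoderm induction in the embryo, was not called. It stood at 31.7, 34.01 and 34.7 CPM in D1Dox_d2 against 33.8, 8.54 and 9.52 CPM in NoDox_d2. Replicate 1 of the controls lay among the doxycycline libraries, while the other 2 lay far below. On the log2 scale the difference was 0.95 ± 0.48 (edgeR adjusted p = 0.154), and 1.88 without NoDox_d2 replicate 1 (adjusted p = 0.00134). Bmp5 lay above its controls without a call (0.52, adjusted p = 0.447), and reads of Bmp5 are uncertain because 46.7% of its exon bases lie under the antisense gene Gm26903 and counting ignored strand. Of the remaining ligands, Bmp8b, Gdf6 and Gdf11 were not called and overlapped their controls.

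Among the TGF-beta ligands Tgfb3 rose. It stood at 46.4, 44.7 and 54.2 CPM in D1Dox_d2 against 14.7, 9.68 and 7.44 CPM in NoDox_d2, with no overlap. It differed by a log2 fold change of 2.19 ± 0.37 (edgeR adjusted p = 0.00145), and 12.4% of its exon bases lie under antisense genes. Tgfb1 stood at 70.2, 70.8 and 86.6 CPM in D1Dox_d2 against 61.1, 13.5 and 17.8 CPM in NoDox_d2, all doxycycline libraries above all controls but close to replicate 1. It was not called (log2 fold change 1.30 ± 0.52, edgeR adjusted p = 0.0838), but was without NoDox_d2 replicate 1 or NoDox_d4 replicate 1 (adjusted p 0.00138 to 0.0356). Tgfb2 overlapped its controls at 0.58 and was called without NoDox_d2 replicate 1 (log2 fold change 1.26, adjusted p = 0.0302). Bmp1, which is no ligand but the protease that cleaves procollagen and chordin, stood at 110.0, 115 and 125 CPM in D1Dox_d2 against 59.1, 22.4 and 26.03 CPM in NoDox_d2. It rose by 1.70 ± 0.39 on the log2 scale (edgeR adjusted p = 0.00817), again with replicate 1 the highest control.

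Of the 5 type I receptors 1 rose, 2 fell and 2 were not called. Acvr1, which carries BMP signals, stood at 78.2, 78.1 and 84.05 CPM in D1Dox_d2 against 19.9, 19.2 and 19.97 CPM in NoDox_d2. Both groups were tight and far apart, and the log2 fold change was 2.02 ± 0.10 (edgeR adjusted p = 1.51e-07), which has the smallest adjusted p among the members at day 2. Bmpr1b, a BMP receptor of cartilage and neural tissue, fell, from 3.35, 10.4 and 7.14 CPM in NoDox_d2 to 2.95, 2.85 and 1.99 CPM in D1Dox_d2. Replicate 1 was the control nearest the doxycycline libraries, and the log2 fold change was -1.42 ± 0.43 (edgeR adjusted p = 0.0296). Acvr1b, the activin and Nodal receptor, also fell (-0.51 ± 0.17, adjusted p = 0.0397), but without NoDox_d2 replicate 1 its value was -0.24 (adjusted p = 0.0596). Bmpr1b lost its call without any 1 D1Dox_d2 library or NoDox_d2 replicate 2 or 3 (adjusted p 0.0587 to 0.124). Acvr1b also lost it without any 1 D1Dox_d2 library or D3Dox_d4 replicate 2 (over all such omissions, adjusted p 0.0512 to 0.115). Bmpr1a, the main BMP receptor of the epiblast, lay below its controls in every library without a call (-0.15, adjusted p = 0.1902), and Tgfbr1 overlapped them (0.07).

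Of the 4 type II receptors, Bmpr2 and Tgfbr2 rose and Acvr2b fell. Tgfbr2, which binds TGF-beta, stood at 23.9, 24.4 and 29.3 CPM in D1Dox_d2 against 15.3, 5.14 and 3.27 CPM in NoDox_d2, again with replicate 1 the highest control. Its log2 fold change was 1.71 ± 0.43 (edgeR adjusted p = 0.0134), 2.61 without NoDox_d2 replicate 1, and not called without replicate 2 of that group (adjusted p = 0.0553). Bmpr2, the BMP type II receptor, rose by 0.76 ± 0.16 (adjusted p = 0.00481). Acvr2b, which serves activins, Nodal and several GDFs, fell, with a log2 fold change of -0.82 ± 0.24 (adjusted p = 0.0264), a call that was not made without any 1 D1Dox_d2 library or NoDox_d2 replicate 1 (adjusted p 0.0585 to 0.0838). Acvr2a lay below its controls without a call (-0.45, adjusted p = 0.0563), and was called without NoDox_d2 replicate 1 or NoDox_d4 replicate 1 (adjusted p 0.00228 to 0.0292). The co-receptor Tgfbr3, or betaglycan, which presents TGF-beta to its receptors, stood at 27.3, 29.7 and 28.98 CPM in D1Dox_d2 against 13.4, 9.05 and 7.81 CPM in NoDox_d2. Its groups did not overlap (log2 fold change 1.51 ± 0.20, edgeR adjusted p = 0.000249).

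Outside the cell, the modulator Bmper, which binds BMPs and can promote or block them, stood at 20.5, 20.3 and 16.9 CPM in D1Dox_d2 against 3.81, 1.15 and 1.004 CPM in NoDox_d2. Replicate 1 was again the highest control, yet all doxycycline libraries lay above it. On the log2 scale the difference was 3.27 ± 0.50 (edgeR adjusted p = 0.000783), and 4.14 without NoDox_d2 replicate 1. Twsg1, a partner of chordin, rose by 0.37 ± 0.12 (adjusted p = 0.0364). This call was not made without any 1 D1Dox_d2 or D3Dox_d4 library or NoDox_d2 replicate 2 or 3 (adjusted p 0.0535 to 0.144). The antagonist Grem1 stood at 103, 105 and 130.3 CPM in D1Dox_d2 against 83.7, 8.498 and 12.9 CPM in NoDox_d2. No doxycycline library overlapped the controls, but replicate 1 lay close, and the log2 fold change was not called (1.68 ± 0.68, edgeR adjusted p = 0.0843). Without NoDox_d2 replicate 1 it was 3.38 (adjusted p = 7.88e-05). Chrd, or chordin, lay below its controls without a call (-0.61, adjusted p = 0.167; called without NoDox_d4 replicate 1, adjusted p = 0.0251), and Nog, or noggin, overlapped them (-0.22). Bambi, a receptor-like protein without a kinase that blocks type I receptors, stood at 53.9, 65.6 and 54.3 CPM in D1Dox_d2 against 20.7, 20.1 and 24.1 CPM in NoDox_d2. It rose by 1.42 ± 0.23 on the log2 scale (edgeR adjusted p = 0.00113), with no overlap.

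Inside the cell, Smad1 and Smad9 of the BMP branch and the inhibitory Smad7 rose, and Smad3 of the other branch fell. Smad1 stood at 97.6, 102 and 101 CPM in D1Dox_d2 against 36.7, 34.98 and 37.1 CPM in NoDox_d2. Each group spanned under 5 CPM, and the log2 fold change was 1.47 ± 0.10 (edgeR adjusted p = 1.78e-06). Smad9 stood at 1.59, 2.28 and 2.82 CPM in D1Dox_d2 against 0.282, 0.316 and 0.297 CPM in NoDox_d2, a rise from 24 counts over the 3 controls (log2 fold change 2.88 ± 0.43, edgeR adjusted p = 0.000632). Smad5 lay above its controls at 0.34, without a call (adjusted p = 0.0515), and was called without NoDox_d4 replicate 1 or 2 (adjusted p 0.00627 to 0.0452) and with only the 6 compared libraries in the fit (adjusted p = 0.0174). Smad3 fell, from 83.7, 114 and 109 CPM in NoDox_d2 to 50.3, 56.8 and 49.7 CPM in D1Dox_d2. The groups did not overlap (log2 fold change -0.97 ± 0.14, edgeR adjusted p = 0.000414), and Smad2, its partner in that branch, was not called (0.16). Of the inhibitory Smads, Smad7 stood at 38.4, 41.2 and 43.8 CPM in D1Dox_d2 against 27.8, 15.2 and 17.4 CPM in NoDox_d2, a rise of 1.03 ± 0.21 (edgeR adjusted p = 0.00374). Smad6 lay above its controls without a call (0.32, adjusted p = 0.294).

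The Id genes encode proteins that hold basic helix-loop-helix factors off DNA. Id2 stood at 122, 108 and 119 CPM in D1Dox_d2 against 111, 274 and 243 CPM in NoDox_d2. Controls 2 and 3 lay above every doxycycline library and replicate 1 among them, so the groups overlapped. It differed by a log2 fold change of -0.84 ± 0.26 (edgeR adjusted p = 0.0324), and the call was not made without any 1 D1Dox_d2 library or NoDox_d2 replicate 2 or 3 (adjusted p 0.06697 to 0.132), nor with only the 6 compared libraries in the fit (adjusted p = 0.0793). Id3 lay below its controls without a call (-0.29, adjusted p = 0.209), and was called without D3Dox_d4 replicate 1 (adjusted p = 0.0472). Id1 and Id4 overlapped their controls at -0.05 and 0.39. With only the compared libraries in the fit, Acvr1b and Bmp7 were not called either (adjusted p = 0.0947 and 0.0586), and with no filter on low counts Twsg1 was not (0.0819). Tgfb1 was called by DESeq2 (adjusted p = 0.0397), and with no filter so were Tgfb1, Grem1 and Acvr2a (0.0235, 0.0199 and 0.0488).

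**Figure D2:**
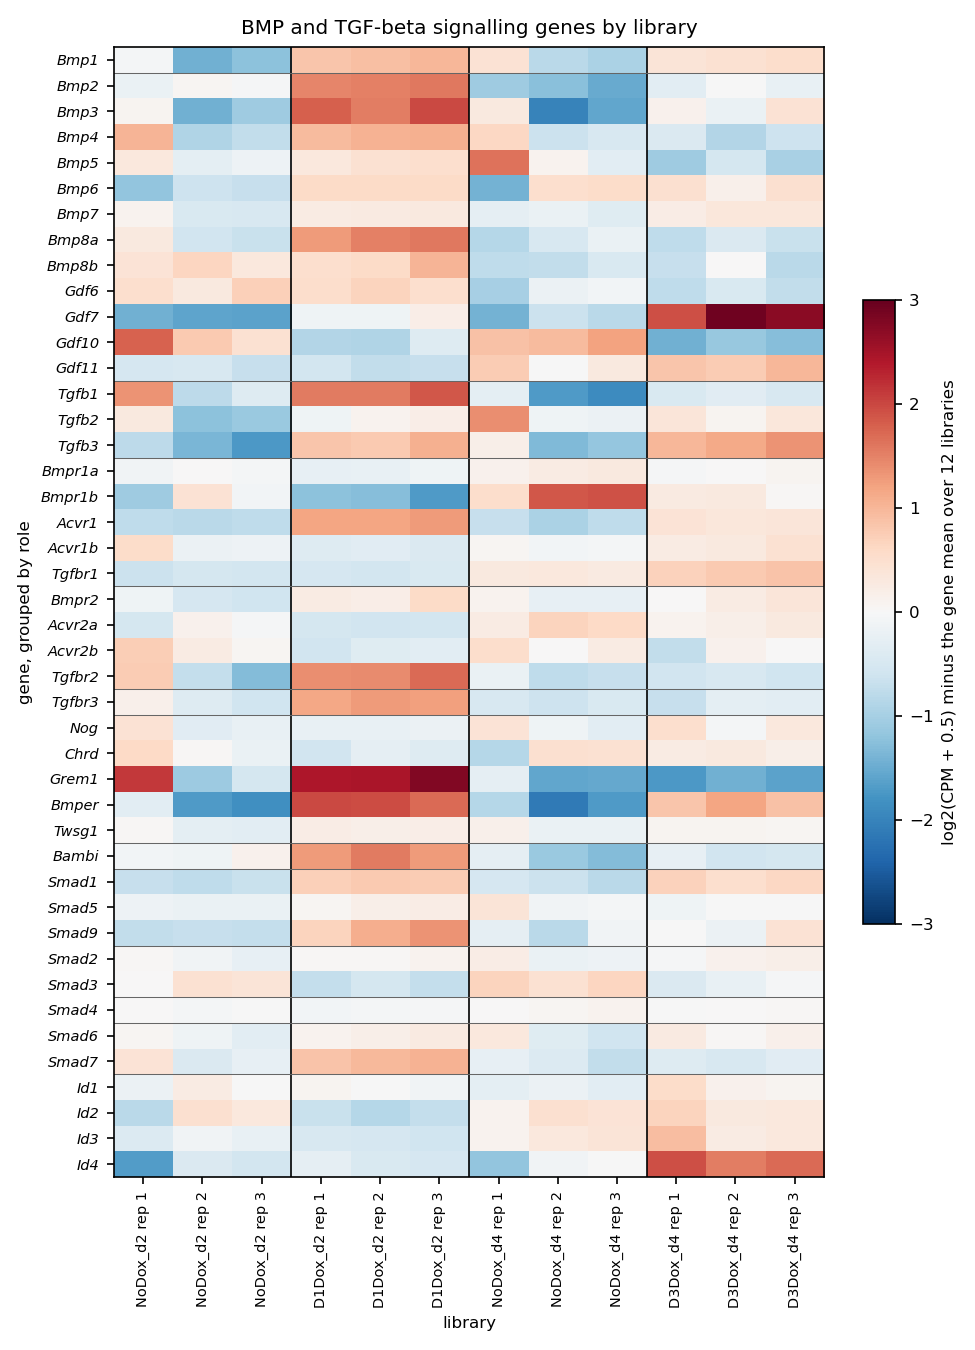
Each of the 44 tested genes (vertical, grouped by role) in each of 12 libraries (horizontal), as log2(CPM + 0.5) minus the gene's mean over the libraries, red above and blue below. Replicate 1 of NoDox_d2 stands closer to D1Dox_d2 than its own group does at Grem1, Tgfb1, Bmp4 and Id2.

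Genes listed as markers of other cells also changed. Of 10 markers of fibroblast feeder cells, on which EpiSCs can be grown, 9 rose at day 2, and their summed level was 1655 to 2012 CPM in D1Dox_d2 against 219 to 325 CPM in NoDox_d2. None of the 10 was at 0 in a group. Whether feeder cells were present, or the embryoid body cells themselves made this RNA, was not tested. The part of these genes in the day 2 result was not tested either. Of 6 tested primitive streak markers 4 fell and none rose, and all 7 summed to 179 to 190 CPM in D1Dox_d2 against 190 and 265 CPM in NoDox_d2 replicates 2 and 3 and 1599 CPM in replicate 1. Of 10 primed epiblast markers 4 fell and none rose, of 6 neural markers 2 rose and 3 fell, of 4 tested blood and endothelial markers 2 rose and none fell, and neither of 2 tested markers of visceral endoderm was called.

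**Figure D3:**
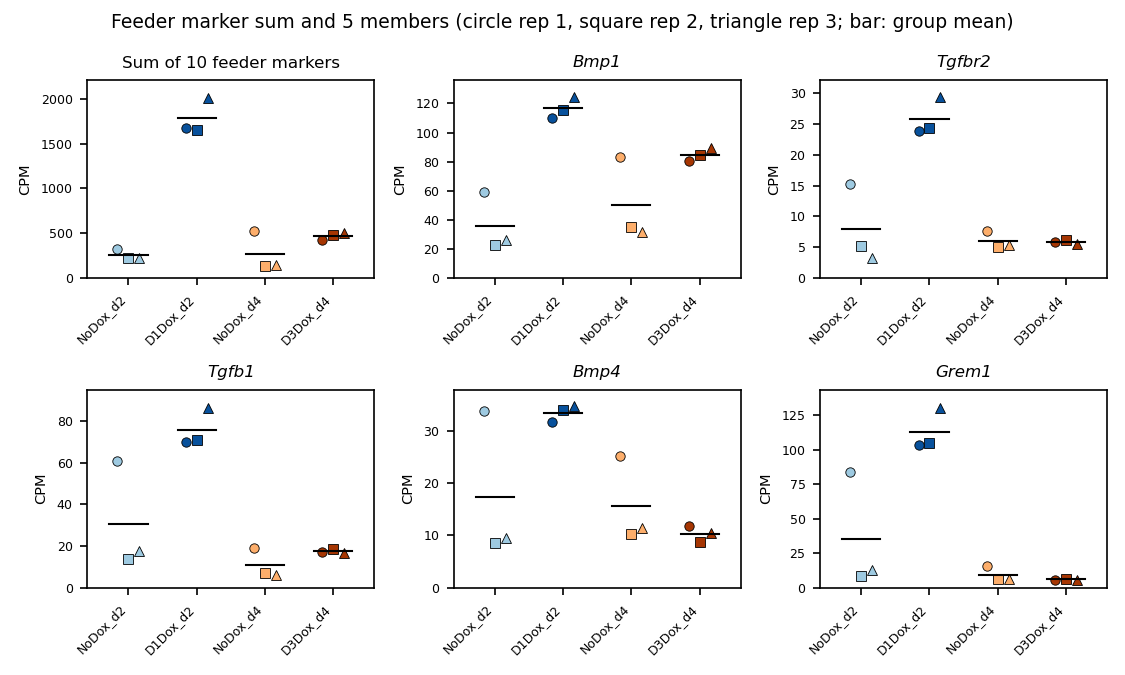
Summed CPM of 10 fibroblast feeder markers and CPM of 5 genes, with one symbol per library (circle, square and triangle for replicates 1, 2 and 3) and a bar at each group mean. The feeder sum is highest in D1Dox_d2, at 1655 to 2012 CPM, and NoDox replicate 1 lies above the other 2 controls in every panel.

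The second comparison asks the same of day 4. Doxycycline was accompanied by higher Gdf7, Tgfb3, Bmper, Acvr1 and Smad1, as on day 2, and by a rise of the BMP target Id4 and of Id1. Gdf10, Bmpr1b, Smad3 and Bmp5 fell. The calls of Id1, Bmpr1b and Bmp5 were each lost without 1 of several libraries. Of 44 members 15 were called, 11 higher and 4 lower, where 23.5% of all tested genes were called (13.4% higher and 10.2% lower). In 17 members the libraries did not overlap, against 40.6% of all genes. The median log2 fold change of the members was 0.25, against -0.03 over all genes. With both NoDox libraries numbered 1 left out, 29 members were called (22 higher and 7 lower), and 7168 of 18613 genes.

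Gdf7 stood at 6.15, 12.6 and 10.98 CPM in D3Dox_d4 against 0.158, 0.6099 and 0.4996 CPM in NoDox_d4. This was the largest difference of any member, with a log2 fold change of 4.54 ± 0.44 (edgeR adjusted p = 3.18e-05) and 32 counts over the 3 controls. The gene is ENSMUSG00000037660.5, at chr12:8297918-8301954 of GRCm38 on the minus strand, and its upstream window is printed above. Gdf10 fell, from 5.798, 6.099 and 7.45 CPM in NoDox_d4 to 0.759, 1.07 and 0.915 CPM in D3Dox_d4. The groups were far apart (log2 fold change -2.81 ± 0.37, edgeR adjusted p = 0.000313). Bmp2 stood at 7.81, 9.73 and 8.397 CPM in D3Dox_d4 against 4.46, 3.86 and 3.15 CPM in NoDox_d4, again without overlap (log2 fold change 1.18 ± 0.16, edgeR adjusted p = 0.000387).

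Bmp5, whose reads are uncertain for the antisense gene, fell, from 8.56, 2.68 and 1.84 CPM in NoDox_d4 to 0.904, 1.55 and 0.995 CPM in D3Dox_d4. Replicate 1 was the highest control by far. Its log2 fold change was -1.92 ± 0.50 (edgeR adjusted p = 0.0173), -0.97 without NoDox_d4 replicate 1 (adjusted p = 0.0491), and not called without D3Dox_d4 replicate 1 or 3 (adjusted p 0.0675 to 0.07003). It was also lost when the fit held no libraries but the 6 compared (adjusted p = 0.0606). Bmp7 rose by 0.58 ± 0.15 (adjusted p = 0.0142; 0.0524 without NoDox_d4 replicate 3). Gdf11, a ligand of axial patterning, was called at the edge (0.49 ± 0.16, adjusted p = 0.04996). Leaving out any 1 of 10 libraries, all except NoDox_d2 replicate 1 and NoDox_d4 replicate 1, ended that call (adjusted p 0.0601 to 0.167), as did DESeq2 (0.0531), upper-quartile scaling (0.0717), DESeq2's size factors (0.0630), a filter of 1 CPM in 3 libraries (0.0648) and a fit of the 6 compared libraries alone (0.152).

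Tgfb3 stood at 51.9, 56.9 and 65.9 CPM in D3Dox_d4 against 29.2, 9.92 and 11.3 CPM in NoDox_d4. Replicate 1 was the highest control but still below every doxycycline library. On the log2 scale the difference was 1.79 ± 0.37 (edgeR adjusted p = 0.00448), and 2.46 without NoDox_d4 replicate 1. Tgfb1 and Tgfb2 were not called and overlapped their controls (0.71 and -0.31). Without NoDox_d4 replicate 1 their log2 fold changes were 1.43 and 0.42, also without a call (adjusted p = 0.0720 and 0.471), so the sign for Tgfb2 turned on that library. Bmp1 was not called either (0.77), with controls of 83.02, 34.8 and 31.8 CPM, and was without NoDox_d4 replicate 1 (log2 fold change 1.35, adjusted p = 0.0118). So was Bmp3 (2.96, adjusted p = 0.00629), at 2.603, 1.99 and 3.34 CPM in D3Dox_d4 against 2.997, 0.203 and 0.461 CPM in NoDox_d4.

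Of the type I receptors, Acvr1 stood at 45.8, 43.1 and 44.3 CPM in D3Dox_d4 against 20.9, 17.4 and 20.02 CPM in NoDox_d4. The controls were at the day 2 level, and the log2 fold change was 1.19 ± 0.09 (edgeR adjusted p = 7.66e-06). Acvr1 is annotated as ENSMUSG00000026836.15, at chr2:58388644-58567157 of GRCm38 on the minus strand. Tgfbr1, the TGF-beta type I receptor, rose by 0.49 ± 0.08 (adjusted p = 0.00103), from 229.5, 235 and 227 CPM to 304, 326 and 339 CPM. Bmpr1b fell, from 11.04, 28.9 and 30.1 CPM in NoDox_d4 to 9.18, 9.44 and 7.76 CPM in D3Dox_d4, with replicate 1 the control nearest the doxycycline libraries. Its log2 fold change was -1.41 ± 0.41 (edgeR adjusted p = 0.0283), and the call was not made without any 1 D3Dox_d4 library or NoDox_d4 replicate 2 or 3 (adjusted p 0.0728 to 0.10002). Acvr1b lay above its controls and Bmpr1a below, neither with a call (0.36, adjusted p = 0.144, and -0.20, adjusted p = 0.0948). Acvr1b was called without NoDox_d2 replicate 1 (adjusted p = 0.00775), and Bmpr1a without NoDox_d4 replicate 1 (adjusted p = 0.0494) or with upper-quartile scaling (0.0429). None of the 4 type II receptors was called, nor was Tgfbr3, at 0.10, although Acvr2a was without NoDox_d2 replicate 1 (adjusted p = 0.0463).

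Bmper was the only called gene of the 5 extracellular modulators. It stood at 9.001, 11.7 and 9.27 CPM in D3Dox_d4 against 2.45, 0.732 and 1.15 CPM in NoDox_d4, with no overlap. It differed by a log2 fold change of 2.79 ± 0.51 (edgeR adjusted p = 0.00226), and of 3.40 without NoDox_d4 replicate 1. Grem1, which had been above 100 CPM in D1Dox_d2, was at 5.28, 6.53 and 5.77 CPM in D3Dox_d4 and 15.5, 6.02 and 6.11 CPM in NoDox_d4, and was not called. Bambi was not called (0.39, adjusted p = 0.257) but was without NoDox_d4 replicate 1 (log2 fold change 0.78, adjusted p = 0.00393).

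Smad1 stood at 95.5, 83.6 and 91.7 CPM in D3Dox_d4 against 41.7, 37.5 and 33.8 CPM in NoDox_d4. The groups did not overlap, with a log2 fold change of 1.26 ± 0.10 (edgeR adjusted p = 5.83e-06). Smad1 is annotated as ENSMUSG00000031681.16, at chr8:79338395-79399518 of GRCm38 on the minus strand. Smad3 fell by 0.82 on the log2 scale (SE 0.14, edgeR adjusted p = 0.00123), with 61.2, 70.03 and 80.6 CPM in D3Dox_d4 and 131, 114 and 129 CPM in NoDox_d4. The other 6 Smads were not called. Of these Smad6, an inhibitory Smad, was called without NoDox_d4 replicate 1 (log2 fold change 0.65, adjusted p = 0.0123).

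Id4 stood at 148, 113 and 127 CPM in D3Dox_d4 against 16.8, 35.7 and 38.2 CPM in NoDox_d4. The lowest doxycycline library held over 110 CPM and the highest control under 40, and the log2 fold change was 2.10 ± 0.33 (edgeR adjusted p = 0.00102). Id4 is annotated as ENSMUSG00000021379.2, at chr13:48261228-48266026 of GRCm38 on the plus strand. Id1 rose by 0.53 ± 0.14 (adjusted p = 0.0191), from 64.8, 70.5 and 63.2 CPM to 117, 86.4 and 83.97 CPM, a call not made without D3Dox_d4 replicate 1 or NoDox_d4 replicate 3 (adjusted p 0.0642 to 0.0703). Id2 and Id3, the most abundant of the Id genes per length, were not called at day 4 (0.10 and 0.25). D3Dox_d4 replicate 1 was the highest library for Id1, Id2, Id3 and Id4 alike.

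Of the 10 feeder markers at day 4, 1 rose, 2 fell and 7 were not called. Their sum was 419 to 500 CPM in D3Dox_d4 against 519, 132 and 137 CPM in NoDox_d4. Col1a2 held the most counts of the 10 in D3Dox_d4 (27324, against 3348 in NoDox_d4). Col3a1 (1501 against 9690) and Dcn (92 against 426) were lower with doxycycline, so the sum joins markers that went opposite ways. Of 6 neural markers 3 rose and none fell, with a sum of 780 to 981 CPM in D3Dox_d4 against 207 CPM in NoDox_d4 replicate 1 and 870 and 902 CPM in replicates 2 and 3. Counts of Neurog2, Tubb3 and Stmn2 were higher in D3Dox_d4 (3445, 35444 and 15825) than in NoDox_d4 (407, 7473 and 3078). Those of Sox1, Pax6 and Zic1 were lower (6307, 2172 and 7254 against 18689, 5200 and 15260), without a call. Id4 is expressed in neural progenitors as well as downstream of BMP, and the part of neural cells in its rise was not tested. Among blood and endothelial markers 1 of 4 tested rose and 2 fell, and neither of the tested visceral endoderm markers was called. Of 10 primed epiblast markers 1 rose and 6 fell, and of 6 tested streak markers 1 fell.

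**Figure D4:**
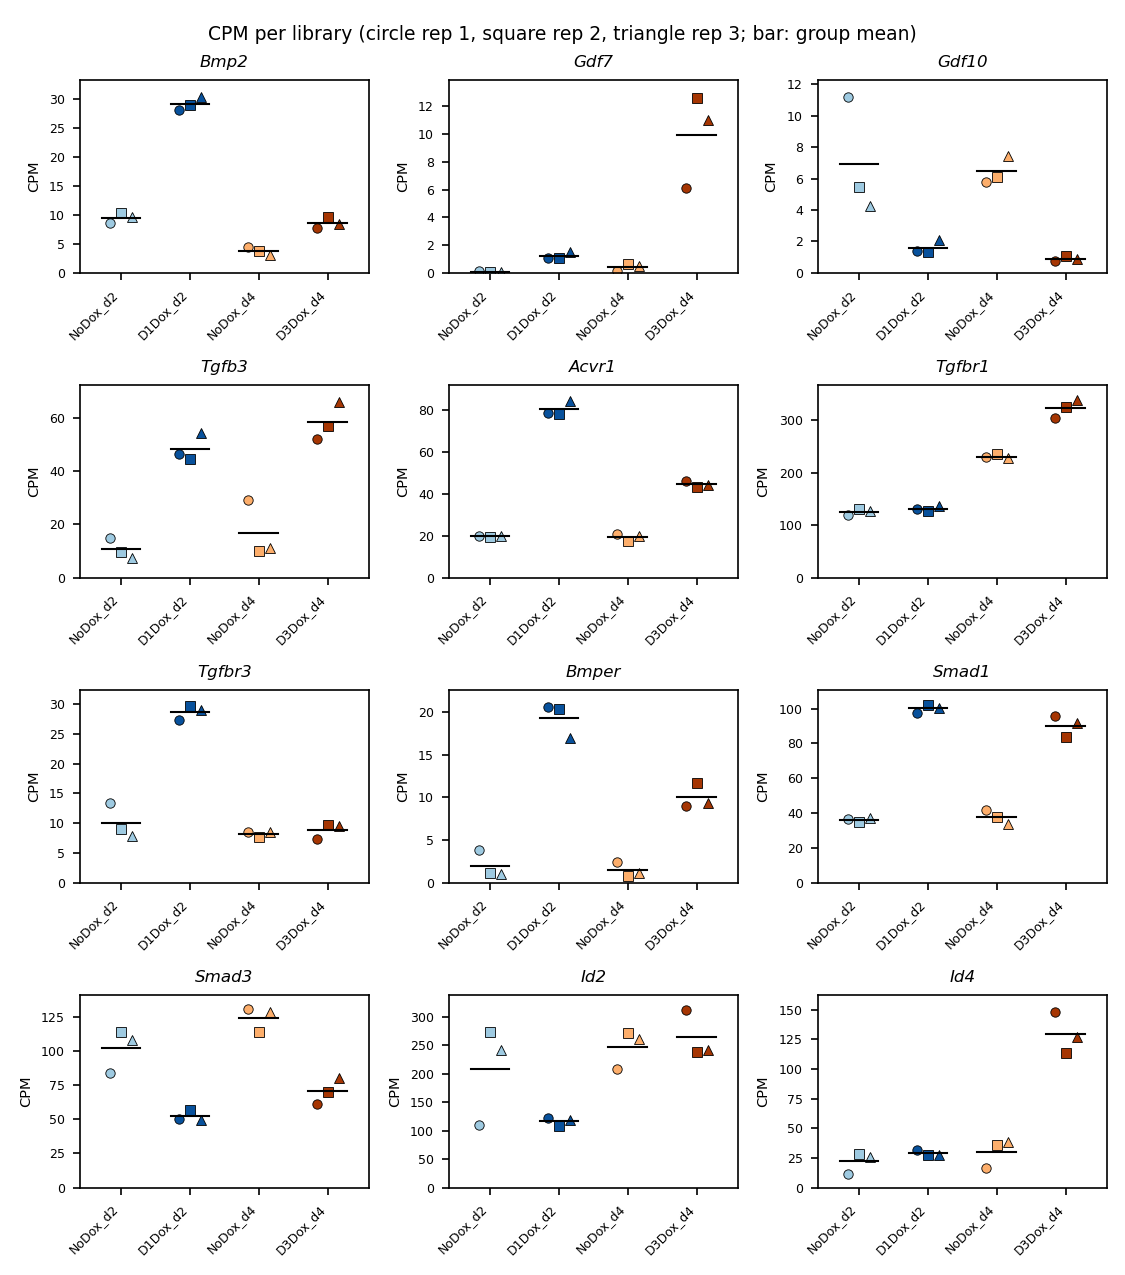
CPM of 12 genes in every library (circle, square and triangle for replicates 1, 2 and 3), with a bar at each group mean, in groups NoDox_d2, D1Dox_d2, NoDox_d4 and D3Dox_d4. Acvr1, Smad1, Bmper and Tgfb3 lie above their controls on both days and Smad3 and Gdf10 below, while Id4 lies above only at day 4.

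Across both days 7 members rose each time, namely Bmp2, Bmp7, Gdf7, Tgfb3, Acvr1, Bmper and Smad1, and 3 fell each time, namely Gdf10, Bmpr1b and Smad3. By role these are 4 ligands, 1 receptor, 1 modulator and 1 Smad higher, and 1 ligand, 1 receptor and 1 Smad lower. No member was called higher on 1 day and lower on the other. Some members called on 1 day had the opposite sign, without a call, on the other. Among them, Acvr1b was called lower at day 2 (-0.51) and had 0.36 at day 4. Bmp5 had 0.52 at day 2 and was called lower at day 4 (-1.92). Calls shared by both days were not counted over all genes, so no share is set beside the counts of 7 and 3. By day, 14.9% of all tested genes were called higher and 13.4% lower at day 2, and 13.4% and 10.2% at day 4. Whether shared calls were more frequent among the members than among all genes was not tested. The day 2 and day 4 libraries are separate, so the 2 comparisons share no control. They are not independent, as all 12 libraries entered 1 fit and same-numbered NoDox libraries deviated together (r = 0.271 to 0.517). Both NoDox replicate 1 libraries also stood apart. Bmpr1b and Bmp7 lost their call on each day without 1 of the libraries given above.

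The third comparison tests whether the doxycycline effect in D3Dox_d4 at day 4 differed from that in D1Dox_d2 at day 2. Collection day and the D1 or D3 label changed together, so the 2 cannot be told apart in this difference. Of 44 members 8 passed, 3 with a more positive effect at day 4 and 5 with a more negative one, where 12.9% of all genes were called (6.66% higher and 6.24% lower). The members' median difference was -0.31, against 0.00 over all genes. The count was 22 (6 more positive and 16 more negative) without both NoDox libraries numbered 1, where 6424 of 18613 genes were called. It was 18 without NoDox_d2 replicate 1 alone, where 5037 of 18746 genes were called. Without any 1 doxycycline library or NoDox_d2 replicate 2 or 3 it was 2 to 4, and 1226 to 1770 over all genes. Acvr1 rose on both days, but by 2.02 at day 2 and 1.19 at day 4, a difference of -0.83 ± 0.13 (edgeR adjusted p = 0.00321). Tgfbr3 rose at day 2 and had 0.10 at day 4, where its libraries held 7.27, 9.62 and 9.55 CPM with doxycycline and 8.48, 7.64 and 8.57 CPM without. The difference was -1.41 ± 0.28 (edgeR adjusted p = 0.00875). These 2 calls were made under every omission of 1 library and every other alternative run.

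The other 6 differences each lost their call without 1 of several libraries. For the inhibitory Smad7, whose day 4 libraries held 15.8, 14.8 and 16.3 CPM with and 17.6, 15.4 and 12.3 CPM without doxycycline, the difference was -0.98 ± 0.29 (edgeR adjusted p = 0.0465). It was lost without any 1 library except NoDox_d2 replicate 1 and NoDox_d4 replicate 3 (adjusted p 0.0741 to 0.113). For Smad9, at 0.795, 0.664 and 1.27 CPM in D3Dox_d4 and 0.592, 0.244 and 0.7301 CPM in NoDox_d4, it was -2.09 ± 0.60 (adjusted p = 0.0411; 0.0501 to 0.102 without any 1 library except D3Dox_d4 replicate 3, NoDox_d2 replicate 1 and NoDox_d4 replicate 2). With no filter on low counts the Smad9 difference had an adjusted p of 0.0545.

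Id4 differed in the other direction, by 1.70 ± 0.46 (edgeR adjusted p = 0.0334). At day 2 it stood at 31.8, 27.7 and 27.2 CPM in D1Dox_d2 against 11.7, 28.3 and 25.99 CPM in NoDox_d2, overlapping, and the call was lost without any 1 doxycycline library or NoDox_d2 replicate 2 or 3 (adjusted p 0.0533 to 0.08204). Tgfbr1 differed by 0.42 ± 0.11 (adjusted p = 0.0296; 0.0516 to 0.0829 without any 1 D1Dox_d2 library, D3Dox_d4 replicate 2 or 3, NoDox_d2 replicate 2 or 3, or NoDox_d4 replicate 3, and 0.0949 with no filter). Acvr1b had a negative effect at day 2 and 0.36 at day 4, a difference of 0.87 ± 0.23 (adjusted p = 0.03302; 0.0576 to 0.0783 without any 1 D1Dox_d2 library, D3Dox_d4 replicate 2 or 3, or NoDox_d4 replicate 2 or 3). Bmp5 differed by -2.44 ± 0.70 (adjusted p = 0.0403; 0.0578 to 0.0964 without any 1 doxycycline library or NoDox_d2 replicate 2 or 3), and by -1.49 without NoDox_d4 replicate 1 (adjusted p = 0.0406).

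A further 9 members were called in this comparison when NoDox_d2 replicate 1 was left out, and with no other omission of 1 library. They were Bmp1, Bmp4, Gdf10, Tgfb1, Tgfb2, Tgfbr2, Grem1, Id1 and Id2. Of these Grem1 had the largest difference, -4.04 (adjusted p = 0.000403), against -2.34 with all libraries (adjusted p = 0.134). Bmp8a was called without NoDox_d2 replicate 1 or NoDox_d4 replicate 1 (adjusted p 0.00534 to 0.0314), Bmp6 and Gdf11 without NoDox_d4 replicate 1 (adjusted p = 0.00314 and 0.00837), and Bambi without NoDox_d4 replicate 3 (adjusted p = 0.0298). DESeq2 called Bambi, Bmp8a and Tgfbr2 as well (adjusted p = 0.0272, 0.0272 and 0.0307), and with no filter on low counts edgeR called these 3, Grem1 and Id2 (adjusted p 0.0315 to 0.0446). Of the 10 feeder markers, 6 had a more negative effect at day 4 than at day 2 and none a more positive one, and their part in these differences was not tested.

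**Figure D5:**
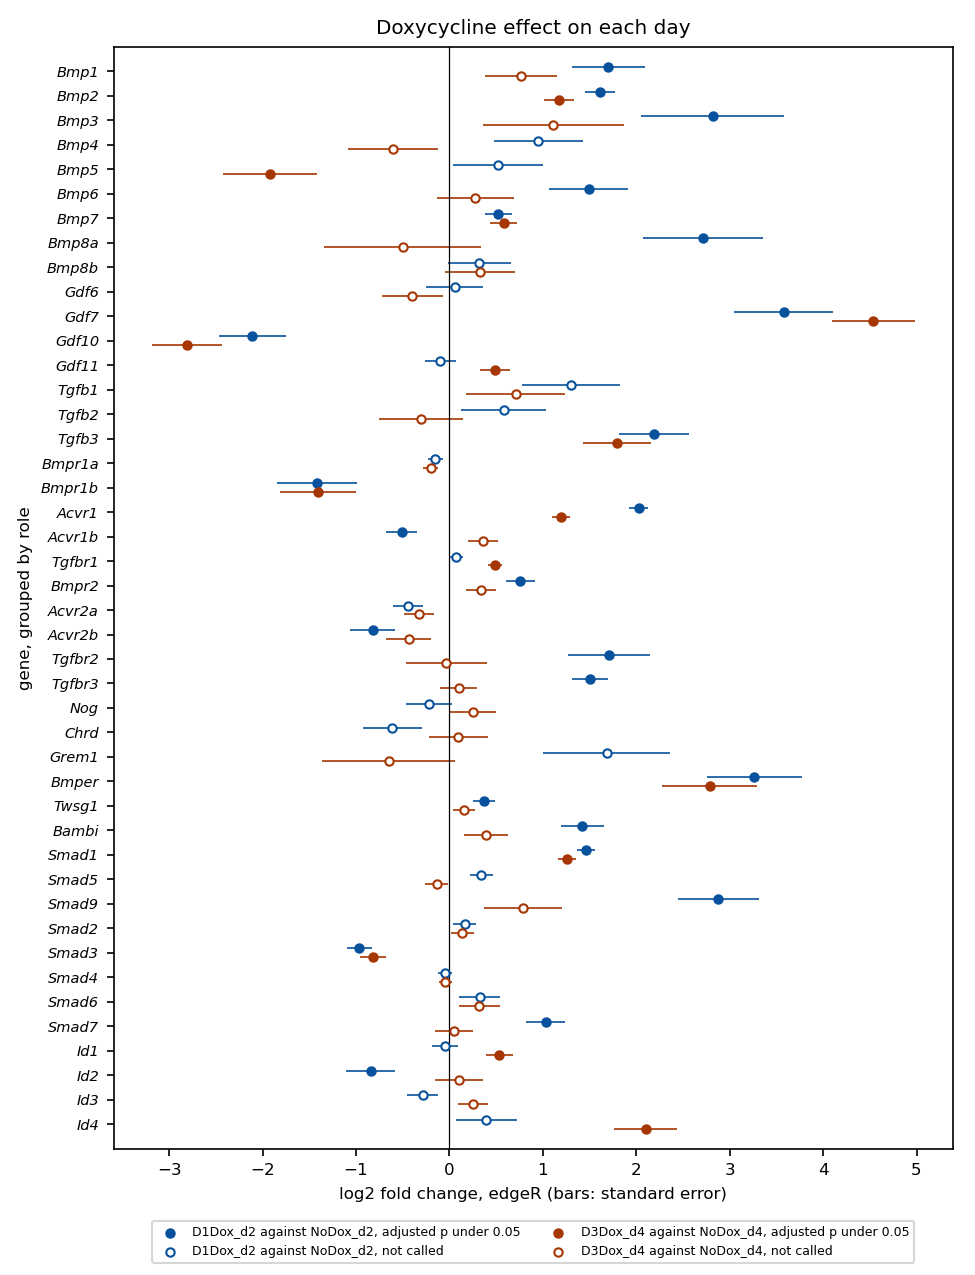
Log2 fold change with doxycycline for the 44 tested genes, with bars of 1 standard error, at day 2 (blue) and day 4 (orange), filled where the edgeR adjusted p is under 0.05. Most filled points at day 2 lie right of 0 (18 of 24), and the day 4 points of Tgfbr3, Tgfbr2 and Smad7 lie near 0.

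The last comparison follows the embryoid bodies without doxycycline from day 2 to day 4, and so shares its controls with the comparisons above. Between these days Gdf11, Gdf7, Bmpr1b, Tgfbr1, Acvr2a and Bmpr1a rose, and Bmp2, Bmp8b, Gdf6 and Bambi fell. That is 10 of 44 members, 6 higher and 4 lower, where 10.6% of all genes were called (5.09% higher and 5.55% lower). In 13 members the libraries did not overlap, against 23.2% of all genes, and the median log2 fold change was 0.04, against 0.02. Without both NoDox libraries numbered 1 the count was 18 (12 higher and 6 lower), where 4534 of 18613 genes were called. It was 3 without NoDox_d4 replicate 2 (all genes 1281), and 4 without NoDox_d4 replicate 3 (all genes 1064) or NoDox_d2 replicate 3 (all genes 1309). Without D3Dox_d4 replicate 2 or 3 or any 1 D1Dox_d2 library it was 6, and 1412 to 1475 over all genes.

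Bmp2 fell, from 8.61, 10.4 and 9.67 CPM at day 2 to 4.46, 3.86 and 3.15 CPM at day 4. The days did not overlap (log2 fold change -1.32 ± 0.16, edgeR adjusted p = 0.000653). Bmp8b stood at 0.592, 0.6099 and 0.845 CPM in NoDox_d4 against 1.94, 2.37 and 1.78 CPM in NoDox_d2, a log2 fold change of -1.57 ± 0.36 (edgeR adjusted p = 0.0183). That call was lost without NoDox_d2 or NoDox_d4 replicate 2 (adjusted p 0.05099 to 0.0674), and 12.2% of the gene's exon bases lie under antisense genes. Gdf6, a ligand of eye and joint patterning, stood at 0.789, 1.79 and 1.92 CPM in NoDox_d4 against 3.18, 2.65 and 3.76 CPM in NoDox_d2 (-1.09 ± 0.31, edgeR adjusted p = 0.046996), and its call was lost without any 1 of the 12 libraries (adjusted p 0.0522 to 0.138). Gdf7 rose by 2.04 ± 0.58 (adjusted p = 0.0442) from 8 to 32 counts, lost without any 1 of 10 libraries (adjusted p 0.05602 to 0.148), the exceptions being D3Dox_d4 replicate 1 and NoDox_d4 replicate 1. Gdf11 rose by 0.94 ± 0.17 (adjusted p = 0.00439).

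Bmpr1b stood at 11.04, 28.9 and 30.1 CPM in NoDox_d4 against 3.35, 10.4 and 7.14 CPM in NoDox_d2. Replicate 1 was the lowest library on both days. Its log2 fold change was 1.74 ± 0.42 (edgeR adjusted p = 0.0211; 0.0617 to 0.0803 without NoDox_d2 replicate 3 or NoDox_d4 replicate 2 or 3). Tgfbr1 rose by 0.88 ± 0.08 (adjusted p = 0.000112), from 119, 131 and 127 CPM to 229.5, 235 and 227 CPM. It was the only 1 of the 10 called under every omission of 1 library and every other alternative run. Acvr2a rose by 0.64 ± 0.16 (adjusted p = 0.0268; 0.0551 to 0.0967 without the same 3 libraries as Bmpr1b). Bmpr1a rose by 0.28 ± 0.08 and Bambi fell by 0.82 on the log2 scale (adjusted p = 0.0475 and 0.0441), and each lost its call without any 1 library but NoDox_d4 replicate 1 (adjusted p 0.0541 to 0.176 and 0.0552 to 0.152). Of the uncalled members, 3 did not overlap between the days, namely Smad5, Smad3 and Id3 (0.27, 0.29 and 0.52). Id3 was called without NoDox_d4 replicate 1 or D3Dox_d4 replicate 1 (adjusted p 0.0113 to 0.0369), Bmp6 without NoDox_d4 replicate 1 (adjusted p = 0.000823) and Tgfb2 without NoDox_d2 replicate 1 (adjusted p = 0.0196). Tgfb1 was called without NoDox_d2 replicate 2 or NoDox_d4 replicate 1 (adjusted p 0.0152 to 0.0426), and Grem1 without NoDox_d2 replicate 2 (adjusted p = 0.0329). Bmpr1a was not called with DESeq2's size factors, upper-quartile scaling or no filter (adjusted p = 0.0512, 0.0555 and 0.208), nor Gdf6 with no filter (0.0679). Id3 and Tgfb1 were called by DESeq2 (adjusted p = 0.0407 and 0.0222), and Id3, Tgfb1 and Grem1 with no filter (0.0438, 0.0158 and 0.0176). With only the 6 NoDox libraries in the fit, 1 member was called, Tgfbr1, and 206 of 16589 genes. Of 10 primed epiblast markers 7 fell over the same interval and none rose.

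Several members in NoDox replicate 1 lay outside the other 2 libraries of their group. At day 2 replicate 1 held more Bmp4, Tgfb1, Grem1, Bmp1 and Tgfb2, as given above, and less Id2, Id4 and Bmpr1b. NoDox_d4 replicate 1 held more Tgfb2 (70.2, 24.2 and 23.4 CPM), Bmp4 (25.1, 10.3 and 11.5 CPM) and Bmp5, and less Bmp6 (2.29, 10.04 and 10.4 CPM), Chrd (7.26, 18.9 and 18.6 CPM), Id4 and Bmpr1b. Mixl1 stood at 91.0 CPM and streak markers at 1599 CPM in NoDox_d2 replicate 1, and NoDox_d4 replicate 1 held feeder markers at 519 CPM and neural markers at 207 CPM. The part of these in the members' values was not tested.

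Of 51 other genes of the pathway, 47 were tested. At day 2, 14 rose and 5 fell, where 14.9% of all tested genes were called higher and 13.4% lower. The activin-like receptor Acvr1c had the highest log2 fold change (4.36 ± 0.69, from 8 counts over 3 controls to 156, and 6.45 without NoDox_d2 replicate 1), followed by the secreted TGF-beta target Tgfbi (4.07 ± 0.51) and the BMP-responsive homeobox gene Dlx5 (3.74 ± 0.95, 19 to 239 counts; adjusted p = 0.0567 without NoDox_d2 replicate 3). Lowest were the secreted antagonist Sost (-3.21 ± 0.90, and -1.34 without NoDox_d2 replicate 1) and the BMP co-receptors Rgma (-1.71 ± 0.17) and Hjv (-1.02 ± 0.34). Sost lost its call without any 1 D1Dox_d2 library or NoDox_d2 replicate 1 (adjusted p 0.0588 to 0.0992). Hjv lost it without any 1 doxycycline library, NoDox_d2 replicate 2 or 3, or NoDox_d4 replicate 2 (adjusted p 0.0506 to 0.160).

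At day 4, 8 of the 47 rose and 7 fell, against 13.4% of all tested genes higher and 10.2% lower. Acvr1c (6.22 ± 0.76, from 4 to 338 counts, and 7.44 without NoDox_d4 replicate 1), the stress-induced ligand Gdf15 (2.60 ± 0.65, and 3.28 without NoDox_d4 replicate 2) and Dlx5 (2.56 ± 0.81) were highest. Sost (-3.60 ± 0.97) and the TGF-beta activator Thbs1 (-2.14 ± 0.48) were among those that fell. Omitting NoDox_d4 replicate 1 gave Dlx5 a log2 fold change of 5.19. Its call was lost without any 1 doxycycline library, NoDox_d2 replicate 2 or NoDox_d4 replicate 2 or 3 (adjusted p 0.0501 to 0.104). Sost, at -2.63 without NoDox_d4 replicate 1, lost its call without that library or D3Dox_d4 replicate 1 or 3 (adjusted p 0.0707 to 0.0764).

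The doxycycline effect differed between days for 10 of the 47, 2 more positive at day 4 and 8 more negative. Over all tested genes 6.66% were more positive and 6.24% more negative. Hjv (1.81 ± 0.48) and the Smad phosphatase gene Ppm1a (0.38 ± 0.11) were the more positive pair, and the chordin-cleaving protease gene Tll1 (-3.94 ± 0.99, and -5.24 without NoDox_d2 replicate 1), Tgfbi (-2.92 ± 0.66) and Thbs1 (-2.69 ± 0.66) the most negative. Of these 5 only Tgfbi was called under every omission of 1 library, with -1.80, the value nearest 0, without NoDox_d4 replicate 1. Between the NoDox days 5 of the 47 rose and 6 fell, against 5.09% of all tested genes higher and 5.55% lower. The BMP targets Atoh8 (1.37 ± 0.25) and Hey1 (1.13 ± 0.22) and the co-receptor Rgma (0.96 ± 0.17) were highest, and the matrix protein gene Ltbp2 (-1.57 ± 0.36), Ldlrad4 (-1.54 ± 0.40), which dampens TGF-beta signalling, and the activin antagonist Fst (-1.46 ± 0.33) lowest. Ltbp2 lost its call without NoDox_d2 replicate 3 or NoDox_d4 replicate 2 (adjusted p 0.0611 to 0.0637), and Ldlrad4 without any 1 of 7 libraries (adjusted p 0.0506 to 0.117).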

How the data were processed

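RNA of 12 libraries in 4 groups of 3 was analysed. Reads were trimmed with Trim Galore to at least 50 bp, per the labels' protocols. The submitters' processing notes list GRCm38 and mm10 as builds and STAR, featureCounts and DESeq2 as tools. The deposited values are raw counts per gene, made with featureCounts 2.0.1 on GENCODE vM25 without a strand setting, per the file headers, so a gene and its antisense partner cannot be told apart. The deposited gene length was used, as other than a measurement, for levels per kb.

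Ensembl identifiers gave a symbol to 55141 of 55487 genes. All 12 libraries entered 1 fit of edgeR 4.0.16 (limma 3.58.1, R 4.3.3), with TMM scaling, filterByExpr, 1 coefficient per group, 8 residual degrees of freedom and the quasi-likelihood test. Benjamini-Hochberg adjustment ran over 18109 genes. CPM are TMM-scaled counts, n is 3 per group, and a standard error (SE) was taken as the fold change on the log2 scale over the root of the F statistic, which can understate counting error at few counts. The test was checked on simulated counts with 200 genes changed in D1Dox_d2. The simulation held no control libraries that stood apart or deviated together, so it does not cover those features of these data.

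Genes, lists and tests were chosen with earlier results of these data known. Every called member is named. Values per library are given for members with a called log2 fold change of at least 1 in size and a mean of at least 1 CPM. Uncalled members are named where their level per kb is among the 5 highest or where groups do not overlap; others named beside them were chosen after their values were seen. Of the other pathway genes the 3 highest and 3 lowest called per comparison are named, except 1 that is not reported here. Likeness between members was computed, but is not given because the libraries fall into groups. The share of a member's exon bases under antisense genes is given where above 10%.

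Same-numbered libraries of the 2 NoDox groups deviated together (r = 0.271 to 0.517), so every pair in that comparison passed a rule of over 0.1. NoDox_d2 replicate 2 deviated likewise with NoDox_d4 replicate 3 (r = 0.354), and NoDox_d2 replicate 3 with NoDox_d4 replicate 2 (r = 0.266). Passing the rule therefore does not show that the numbers pair these samples. With the replicate number as a block, no member call changed in the comparison of the NoDox days. In the doxycycline comparisons no number paired the samples. Alternatives were the scaling, the filter, DESeq2 1.42.0, the libraries in the fit, the replicate block, each library left out, and both NoDox libraries numbered 1 left out.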

Additional observations from a re-analysis of the deposited data

Results flagged for a closer look

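The test of the difference itself was of the day 4 effect minus the day 2 effect on the log2 scale, by edgeR's quasi-likelihood test. It called 8 members, for which collection day and the D1 or D3 label cannot be told apart. The difference was -2.44 for Bmp5, -0.83 for Acvr1, -1.41 for Tgfbr3, -2.09 for Smad9 and -0.98 for Smad7, each more negative at day 4. It was 0.87 for Acvr1b, 0.42 for Tgfbr1 and 1.70 for Id4, each more positive at day 4. Acvr1 and Tgfbr3 were called under every alternative run, while the other 6 lost the call without 1 of several libraries.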

How the results depend on the processing

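Leaving out each library in turn gave 16 to 28 called members at day 2, 11 to 20 at day 4, 2 to 18 for the difference between days and 3 to 12 between the NoDox days. Over all 18622 to 18849 genes tested, the calls ranged likewise, from 3048 to 7438, 2756 to 5554, 1226 to 5037 and 1064 to 3208. Of the called members 15 of 24, 10 of 15, 2 of 8 and 3 of 10 were called in every such fit. Without both NoDox libraries numbered 1 the counts were 34 at day 2, 29 at day 4, 22 for the difference and 18 between the NoDox days. No called member was lost, and 10, 14, 14 and 8 were gained. Leaving out libraries picked because they stood apart narrows the scatter, so these gains can follow from the choice alone. Under that setting Tgfb2 at day 4 changed sign, from -0.31 to 0.42 (edgeR adjusted p = 0.0121), and Chrd between the NoDox days from -0.04 to 0.56 (adjusted p = 0.00629). With only the compared libraries in the fit, which has fewer samples, 1 member was called between the NoDox days, and 206 of 16589 genes. The cause of this and of the other changes was not tested. The other scalings, filters and DESeq2 kept every count of called members within 1.5 times. With the replicate block 27 members were called at day 2 in place of 24, with Acvr2a, Bmp4, Grem1 and Tgfb1 gained and Id2 lost (adjusted p = 0.0515), and 15, 8 and 10 in the other comparisons. Of 18 same-numbered pairs of libraries 5 deviated together by more than 0.1 (r = -0.11 to 0.517), 3 of them between the NoDox groups, so the numbers were not taken to pair samples in the doxycycline comparisons. Depth limits Gdf7 and Smad9 without doxycycline, Bmp8a there and in D3Dox_d4 (11 counts), and Gdf5 throughout.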
